A study of Mus musculus with 18 samples.

Results

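The glycolytic enzymes, the glucose importer and a set of genes responding to low oxygen were followed in macrophages of 2 genotypes given oxidized low-density lipoprotein (oxLDL). The 35 genes were taken by symbol from a table of 18668 gene symbols, by a rule that uses no measured value. The set was chosen with earlier results of these data known. All 35 were found, and all passed the filter for testing (at least 0.1 RPKM in at least 3 of the 18 libraries), which 12838 genes passed. Adm passed it through the libraries with the higher amount of oxLDL alone, so its difference was partly fixed by the filter. Levels are in RPKM, read numbers divided by gene length and library size.

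RNA was sequenced from bone marrow-derived macrophages (BMDM) of C57BL6 background, grown from mouse marrow with M-CSF for 7 days. The study's text describes its RNA-seq libraries as stranded and made with poly(A) selection. Apoe-/- mice lack apolipoprotein E and are widely used as a model of atherosclerosis. The other genotype, Apoe-/-/Treml4-/- (DKO), lacks in addition Treml4, a receptor of the TREM family, so that both genotypes carry the Apoe deletion and no wild-type cells were compared. Cells received PBS as vehicle (untreated) or oxLDL at 10 or 60 µg/ml for 16 h, here called oxLDL 10 and oxLDL 60, with 3 replicates in each of the 6 groups. The hours are those of the series text, while the study's own text gives a longer time for this experiment and a protocol label names LPS, so that the treatment is uncertain in these respects. The series text calls these replicates biological. Ages of the mice are not given in the sources used here. Neither deletion is limited to macrophages, and cells grown from marrow stand in for those of a lesion.

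Glycolysis splits glucose to pyruvate in the cytosol, and macrophages turn to it when they are activated. Hypoxia-inducible factor 1 (HIF-1) raises the transcription of most of its enzymes when oxygen is low, since prolyl hydroxylases then no longer mark the HIF-1 alpha protein for degradation. Several steps have more than 1 enzyme form, each from its own gene, and the forms differ in their regulation and in where in the cell they sit.

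Promoters of 5 of the genes are shown first, because HIF-1 binds DNA at a short core motif. That motif was searched for as ACGTG or GCGTG on both strands (CACGT or CACGC where it lies on the other strand), and overlapping matches were counted separately. The sequences are the 250 bases before the annotated start, written 5′ to 3′ along the gene, from RefSeq on GRCm38.p6, with matches in capitals. Hk3 (chr13:55021386-55021635, minus strand), P4ha2 (chr11:54100674-54100923, plus strand) and Adm (chr7:110627407-110627656, plus strand) are shown because their transcripts rose at oxLDL 60. Bnip3 (chr7:138909507-138909756, minus strand) and Ankrd37 (chr8:45999851-46000100, minus strand) are shown because they are known HIF targets whose transcripts did not pass the test there.
Hk3: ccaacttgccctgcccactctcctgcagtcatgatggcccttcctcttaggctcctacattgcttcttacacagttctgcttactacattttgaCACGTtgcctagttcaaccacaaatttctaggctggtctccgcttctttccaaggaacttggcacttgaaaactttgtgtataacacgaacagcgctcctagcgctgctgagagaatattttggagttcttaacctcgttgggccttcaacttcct
P4ha2: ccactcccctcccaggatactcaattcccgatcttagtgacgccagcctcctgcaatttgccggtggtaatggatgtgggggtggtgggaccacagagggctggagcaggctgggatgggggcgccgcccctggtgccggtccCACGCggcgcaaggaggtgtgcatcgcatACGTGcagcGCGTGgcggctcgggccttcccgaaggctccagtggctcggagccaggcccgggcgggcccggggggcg
Adm: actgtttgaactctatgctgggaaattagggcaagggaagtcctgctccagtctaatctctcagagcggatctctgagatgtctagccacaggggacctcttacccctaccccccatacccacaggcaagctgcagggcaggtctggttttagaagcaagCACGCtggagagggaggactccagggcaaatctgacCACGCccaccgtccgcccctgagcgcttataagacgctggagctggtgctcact
Bnip3: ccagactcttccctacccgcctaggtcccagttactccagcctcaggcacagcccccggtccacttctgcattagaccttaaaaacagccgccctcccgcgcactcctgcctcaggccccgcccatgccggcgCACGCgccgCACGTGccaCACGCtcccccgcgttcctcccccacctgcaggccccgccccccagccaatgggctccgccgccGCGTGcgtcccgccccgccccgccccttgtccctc
Ankrd37: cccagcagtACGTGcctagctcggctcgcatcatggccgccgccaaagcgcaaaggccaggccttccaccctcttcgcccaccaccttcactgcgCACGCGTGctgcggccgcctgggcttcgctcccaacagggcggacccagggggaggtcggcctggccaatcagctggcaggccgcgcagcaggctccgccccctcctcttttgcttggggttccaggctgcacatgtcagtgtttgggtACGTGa
Hk3 held 1 match, 156 bases before the start. P4ha2 held 3 matches, Adm 2, Ankrd37 4 and Bnip3 5. Over all the genes followed here, 33 of the 35 had an entry (Bhlhe40 and Ndrg1 had none), giving 49 promoters, of which 38 (77.6%) held a match. The same window held a match in 38.6% of all 32851 promoters and in 54.8% of the 12815 promoters of genes tested. Among the 35 genes, the promoters of those called at oxLDL 60 in either genotype held a match in 7 of 8 cases, and those of the others in 31 of 41 (75.6%). A match describes these letters and does not show that HIF-1 binds there.

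Depth recovered from the steps between low values ranged over the libraries from 39.7 M to 54.2 M reads. Treml4 was at 1.86 to 8.39 RPKM in the 9 Apoe-/- libraries and at 0 to 0.0116 RPKM in the 9 DKO libraries, while residual Apoe signal was between 0.349 and 4.13 RPKM over all 18. Macrophage markers were abundant in every library (8 genes in the table, summed 5560 to 12000 RPKM). Markers of dendritic cells summed to at most 0.433 RPKM and those of lymphocytes to at most 0.206 RPKM. Neutrophil markers summed to 31.4 to 85.1 RPKM, and markers of fibroblasts and endothelium to 3.13 to 17.7 RPKM. In bulk RNA, fewer cells of a type and less RNA per cell cannot be told apart. Libraries with Xist above 1 RPKM (7.25 to 14.5 RPKM) were replicate 2 of Apoe-/- and replicate 3 of DKO at each treatment, 6 in all, and Xist was at most 0.069 RPKM in the other 12. For the effects of oxLDL and of genotype, counts without these 6 libraries, and the genes that then missed a limit, are given with the results.

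A gene is written to have risen or fallen where its adjusted p was under 0.05 (limma, Benjamini-Hochberg over the 12838 genes), and it is called where it also changed by at least 1.4-fold. Fold changes are differences of log2(RPKM + 0.1), with their standard errors (SE). Group levels are means ± SD with n = 3.

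At oxLDL 60, most of the pathway moved in Apoe-/- macrophages. Of the 35 genes, 17 rose and 3 fell, which is 57.1%, and the same adjusted p was met by 30.2% of all genes tested (18.5% higher and 11.7% lower). The 7 called genes all rose, which is 20.0% of the 35, where 13.9% of all genes were called (7.13% higher and 6.78% lower). They were the hexokinases Hk1 and Hk3, the phosphofructokinase Pfkp, and P4ha2, Bhlhe40, Ndrg1 and Adm, which leaves 6 apart from Adm. The median log2 fold change of the 35 was 0.19, against 0.06 for all genes tested. With the replicate as a block within genotype, 18 genes rose and 5 fell (24.5% and 15.2% of all genes). Without the Xist-positive libraries 13 rose and 2 fell (15.9% and 9.28% of all genes), with the same number of calls, 7.

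In DKO macrophages the same amount of oxLDL gave 8 genes that rose and 4 that fell, 34.3% of the 35, where 25.9% of all genes passed (9.06% higher and 16.8% lower). The 6 called genes also all rose. Called among all genes were 12.2%, 4.87% higher and 7.31% lower. Hk3, P4ha2, Bhlhe40 and Ndrg1 were called in both genotypes, whose libraries are separate, and so was Adm, with the limit given above. The median of the 35 was 0.09, against -0.06 for all genes. Without the Xist-positive libraries 9 genes rose and 3 fell in DKO (8.2% and 12.1% of all genes), with 6 called (11.8% of all genes). The direction of change was the same in both genotypes for 29 of the 35 (82.9%), and for 71.2% of all genes tested.

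The split in DKO depended on how the libraries were scaled. When each library was rescaled by the median ratio of its genes, 14 of the 35 rose and 1 fell in DKO, with all genes at 14.7% higher and 14.5% lower. In Apoe-/- the same rescaling left 14 that rose and 3 that fell (all genes 16.5% and 17.4%). The medians of the 35 were then 0.13 and 0.15. Rescaling centres all genes of a library by construction. Same-numbered libraries of a genotype deviated together, and a fit with the replicate as a block within genotype gave 19 genes past the adjusted p in DKO, 11 higher and 8 lower, where 35.7% of all genes passed.

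**Figure D1:**
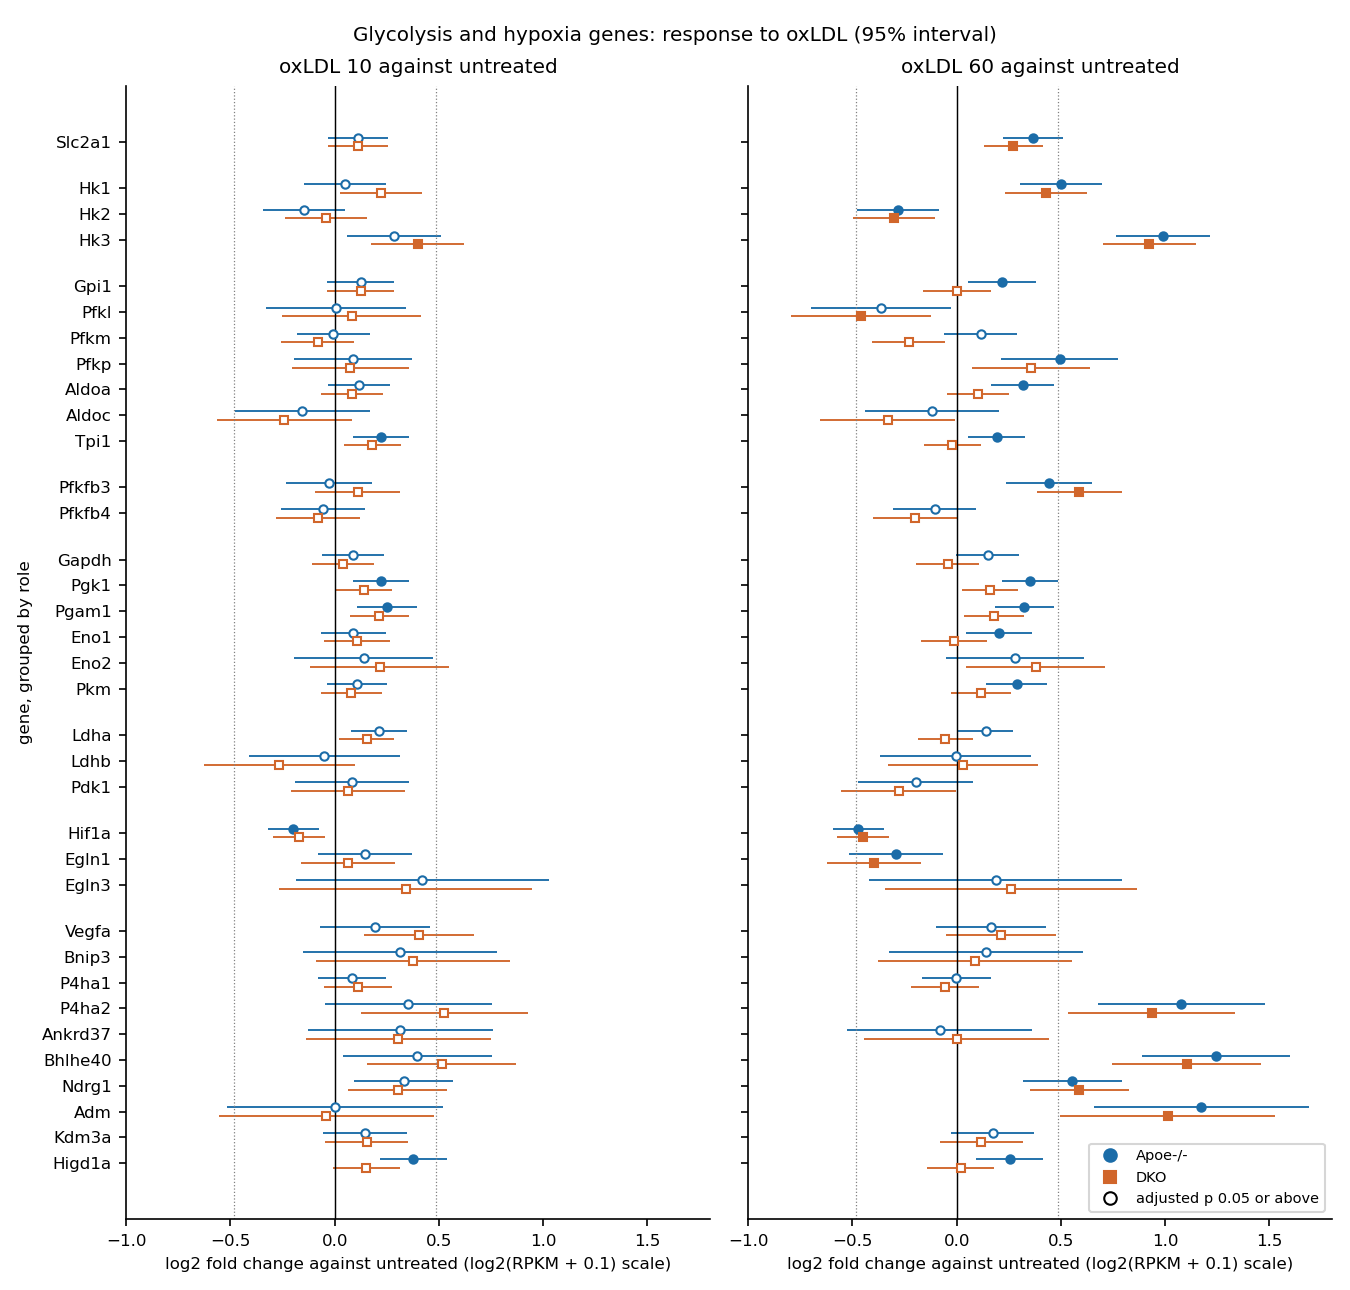
Log2 fold change of each of the 35 genes against untreated cells with its 95% confidence interval (x axis), grouped by role (y axis), for oxLDL 10 on the left and oxLDL 60 on the right. Blue circles are Apoe-/-, orange squares DKO, filled points have an adjusted p under 0.05, and the dotted lines mark 1.4-fold; Bhlhe40, P4ha2 and Hk3 lie far to the right at oxLDL 60, as does Adm, whose place depends on the pseudocount, and Hif1a lies to the left of 0 in both panels.

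Entry of glucose was examined first. Slc2a1, which encodes the glucose importer GLUT1, rose at oxLDL 60 in both genotypes by less than the 1.4-fold limit, with means of 43.9 ± 2.87 and 56.6 ± 2.91 RPKM in Apoe-/- (a log2 fold change of 0.37 ± 0.0676 SE, adjusted p = 0.0005 by limma). In DKO the means were 48.1 ± 0.18 and 58.2 ± 4.5 RPKM (0.27 ± 0.0676 SE, limma adjusted p = 0.0063). In both genotypes the lowest oxLDL 60 library lay above the highest untreated one.

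The hexokinases, which trap glucose in the cell as glucose 6-phosphate, did not move as a group. Hk3, a form abundant in myeloid cells, stood at 44.9, 57.1 and 51.0 RPKM in untreated Apoe-/- cells, 62.7, 63.1 and 59.9 RPKM with oxLDL 10 and 100.4, 102.1 and 100.3 RPKM with oxLDL 60. In DKO it stood at 47.4, 53.0 and 42.7 RPKM untreated, 70.3, 66.9 and 52.3 RPKM with oxLDL 10 and 93.5, 95.3 and 82.5 RPKM with oxLDL 60. Every oxLDL 60 library lay above every other library of its genotype, by a log2 fold change over untreated of 0.99 ± 0.106 SE in Apoe-/- (limma adjusted p = 1.76e-06) and 0.92 ± 0.106 SE in DKO (adjusted p = 4.44e-06).

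Hk1, the form found at mitochondria of most tissues, stood at 22.8, 23.5 and 24.3 RPKM in untreated Apoe-/- cells, 28.1, 21.3 and 24.2 RPKM with oxLDL 10 and 35.01, 29.9 and 35.5 RPKM with oxLDL 60. The DKO libraries held 27.0, 25.5 and 25.2 RPKM untreated, 31.7, 29.5 and 29.6 RPKM with oxLDL 10, and 39.4, 32.5 and 33.0 RPKM with oxLDL 60. The untreated and oxLDL 60 groups did not overlap in either genotype. Hk1 was called in Apoe-/- (0.50 ± 0.0935 SE, limma adjusted p = 0.000564) and rose by slightly less than the limit in DKO (0.43 ± 0.0935 SE, adjusted p = 0.00245), and the difference between both effects did not pass (-0.07, adjusted p = 0.863). The Apoe-/- call was lost without untreated replicate 1 (0.48), oxLDL 60 replicate 1 (0.47) or oxLDL 60 replicate 3 (0.46). With rescaled libraries the order turned, with 0.44 in Apoe-/- and 0.49, then called, in DKO.

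Hk2, the inducible hexokinase and a textbook HIF-1 target, moved the other way. It fell from 14.2 ± 0.947 to 11.7 ± 1.02 RPKM in Apoe-/- (limma log2 fold change -0.28, adjusted p = 0.0292), and in DKO the levels were 15.4 ± 0.425 and 12.5 ± 1.20 RPKM (-0.30, adjusted p = 0.0239), and in both genotypes all oxLDL 60 libraries lay below all untreated ones. In Apoe-/- the adjusted p was missed without untreated replicate 2 (-0.25) or 3 (-0.25) and without oxLDL 60 replicate 1 (-0.25) or 2 (-0.24), and in DKO without untreated replicate 1 (-0.28) or 3 (-0.30) and without oxLDL 60 replicate 2 (-0.23) or 3 (-0.30). Without the Xist-positive libraries it was missed in both (-0.22, adjusted p = 0.169, and -0.30, adjusted p = 0.0704, by limma). As a share of hexokinase transcripts per length, Hk3 went from 57.4% ± 2.25 in untreated Apoe-/- cells to 62.5% ± 3.16 with oxLDL 10 and 69.1% ± 2.01 with oxLDL 60, and Hk2 from 16.0% ± 0.517 to 12.9% ± 0.977 and 7.98% ± 0.575. In DKO the Hk3 share went from 53.5% ± 2.90 to 58.1% ± 4.08 and 65.6% ± 2.55, and the Hk2 share from 17.3% ± 1.31 to 13.9% ± 2.17 and 9.08% ± 0.852. The ratio of Hk3 to Hk2, which no scaling of a library can change, was 3.43, 3.89 and 3.45 in untreated Apoe-/- libraries and 9.03, 9.25 and 7.81 with oxLDL 60. It was 3.01, 3.56 and 2.76 against 6.82, 8.43 and 6.60 in DKO. The groups did not overlap, and the exact two-sided permutation test gave p = 0.1 in each genotype, the smallest that 3 against 3 libraries allow (0.25 after adjustment over 45 such tests).

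Phosphofructokinase carries out the committed step of glycolysis, and its forms were compared in the same way. Pfkp, the platelet form, stood at 27.5, 28.2 and 28.5 RPKM in untreated Apoe-/- cells, 33.3, 26.7 and 30.0 RPKM with oxLDL 10 and 44.6, 34.95 and 39.8 RPKM with oxLDL 60. In DKO it stood at 37.7, 39.2 and 30.1 RPKM untreated, 41.0, 41.1 and 31.0 RPKM with oxLDL 10 and 49.4, 49.9 and 38.0 RPKM with oxLDL 60. Replicate 3 of DKO was the lowest at each treatment, and its oxLDL 60 value lay among the untreated ones. Pfkp was called in Apoe-/- (0.49 ± 0.134 SE, limma adjusted p = 0.00949), while the DKO effect missed the adjusted p (0.36 ± 0.134 SE, adjusted p = 0.0607). With the replicate block within genotype the DKO effect passed (adjusted p = 0.000298), still under 1.4-fold. The Apoe-/- call was lost without untreated replicate 1 (0.48) or oxLDL 60 replicate 1 (0.41), and with rescaled libraries (0.43). The difference between genotypes in this effect did not pass (-0.14, adjusted p = 0.811).

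Pfkl, the liver form, stood at 35.1, 46.5 and 43.0 RPKM in untreated Apoe-/- cells, 39.9, 45.5 and 39.1 RPKM with oxLDL 10 and 30.4, 35.3 and 30.7 RPKM with oxLDL 60. The DKO libraries held 37.4, 36.6 and 52.6 RPKM untreated, 41.6, 37.3 and 55.0 RPKM with oxLDL 10, and 29.4, 26.2 and 35.8 RPKM with oxLDL 60. Replicate 3 of DKO was the highest at each treatment, the reverse of Pfkp, and within each numbered replicate the oxLDL 60 value was the lowest of the 3 treatments. Pfkl fell in DKO (-0.46 ± 0.158 SE, limma adjusted p = 0.0411) and did not pass in Apoe-/- (-0.36 ± 0.158 SE, adjusted p = 0.0966). With the replicate block both effects passed (adjusted p = 0.000182 in Apoe-/- and 1.81e-05 in DKO). The DKO fall depended on single libraries. It missed the adjusted p without untreated replicate 3, the high library (-0.29, adjusted p = 0.205), without oxLDL 60 replicate 1 (-0.44) or 2 (-0.36), and with rescaled libraries (-0.40), and it was called without untreated replicate 1 (-0.54), untreated replicate 2 (-0.55) or oxLDL 60 replicate 3 (-0.58).

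The ratio of Pfkp to Pfkl was 0.786, 0.607 and 0.663 in untreated Apoe-/- libraries and 1.47, 0.991 and 1.30 with oxLDL 60, without overlap (exact two-sided permutation p = 0.1, adjusted 0.25). In DKO it was 1.01, 1.07 and 0.573 untreated and 1.68, 1.90 and 1.06 with oxLDL 60, where replicate 3 with oxLDL 60 lay within the untreated range (exact p = 0.2, adjusted 0.333). Pfkp held 38.2% ± 2.82 of phosphofructokinase transcripts per length in untreated Apoe-/- cells and 52.0% ± 4.63 with oxLDL 60, and 43.4% ± 7.86 and 56.9% ± 7.10 in DKO. Pfkm, the muscle form, was the least abundant (4.11 to 4.83 RPKM over the 6 group means) and did not pass in either genotype, while with the replicate block it fell in DKO (-0.23, limma adjusted p = 0.0194).

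**Figure D2:**
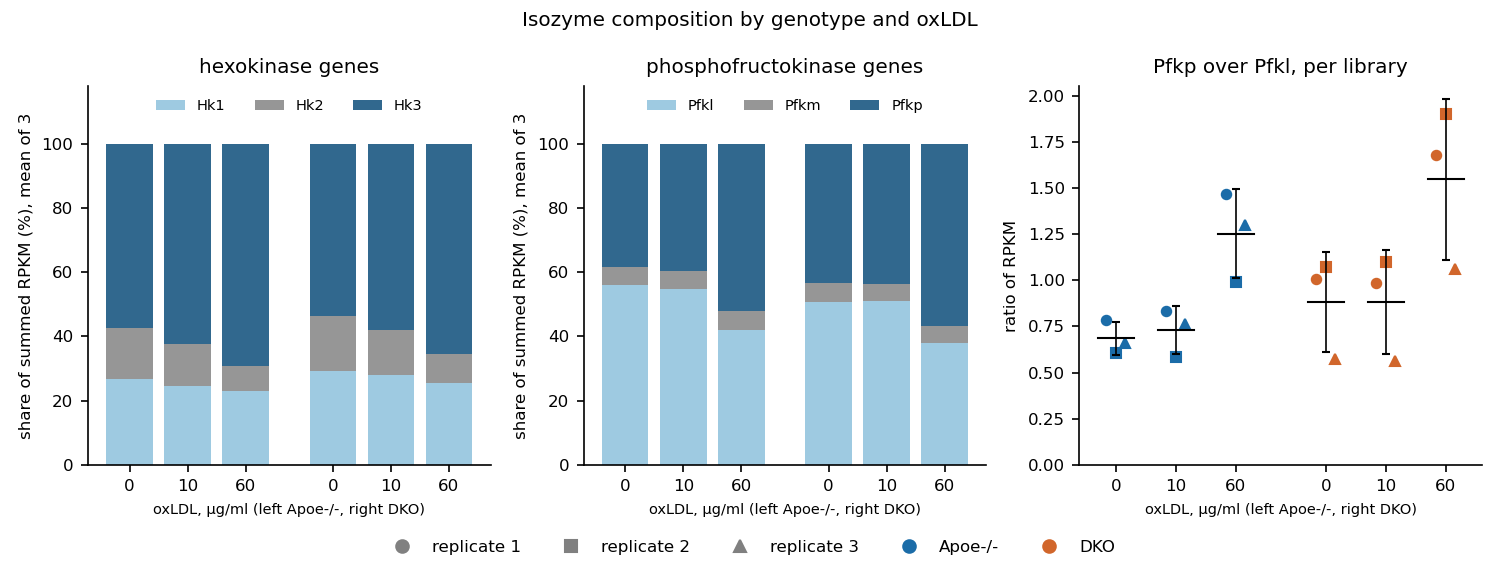
Shares of hexokinase and phosphofructokinase transcripts (stacked bars, percent of the RPKM summed over the family, mean of 3 libraries) and the ratio of Pfkp to Pfkl in each of the 18 libraries (points). The Hk3 share rises from 57.4% to 69.1% in Apoe-/- and from 53.5% to 65.6% in DKO between untreated cells and oxLDL 60, and the ratio of Pfkp to Pfkl is lowest in replicate 3 within DKO.

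Pfkfb3 encodes the bifunctional enzyme that makes fructose 2,6-bisphosphate, the strongest activator of phosphofructokinase. It stood at 6.69, 8.03 and 8.01 RPKM in untreated Apoe-/- cells, 7.69, 6.80 and 7.79 RPKM with oxLDL 10 and 10.8, 9.38 and 10.8 RPKM with oxLDL 60. In DKO it stood at 8.46, 7.89 and 8.44 RPKM untreated, 9.34, 9.43 and 8.07 RPKM with oxLDL 10 and 13.9, 12.6 and 11.1 RPKM with oxLDL 60. All oxLDL 60 libraries exceeded all others of their genotype. Pfkfb3 was called in DKO (0.59 ± 0.0968 SE, limma adjusted p = 0.000199) and rose below the limit in Apoe-/- (0.44 ± 0.0968 SE, adjusted p = 0.00211), with no passing difference between both effects (0.15, adjusted p = 0.714). In Apoe-/- it was also called without untreated replicate 2 (0.49), oxLDL 60 replicate 2 (0.51) or the Xist-positive libraries (0.55). Pfkfb4, a second enzyme of this kind, did not pass in either genotype (9.75 ± 1.45 to 8.98 ± 0.251 RPKM in Apoe-/-, 10.1 ± 0.346 to 8.80 ± 0.55 RPKM in DKO), while with the replicate block it fell in DKO (-0.20, adjusted p = 0.0467).

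Of the 8 enzymes from glucose 6-phosphate isomerase to pyruvate kinase that have 1 dominant form, 7 passed the adjusted p in Apoe-/- macrophages, all higher and under 1.4-fold. Pgk1, Pgam1 and Aldoa did so in each of 17 alternatives, and Pkm in all but the fit limited to the groups compared. Phosphoglycerate kinase (Pgk1) went from 491.7 ± 35.2 to 626.1 ± 22.4 RPKM (log2 fold change 0.35), phosphoglycerate mutase (Pgam1) from 366.6 ± 31.7 to 458.1 ± 10.9 RPKM (0.32), aldolase A (Aldoa) from 855.4 ± 49.0 to 1064 ± 42.4 RPKM (0.32), and pyruvate kinase (Pkm) from 1204 ± 41.2 to 1470 ± 69.3 RPKM (0.29), with limma adjusted p between 0.000432 and 0.00396. For these 4 genes the oxLDL 60 and untreated groups did not overlap. The isomerase Gpi1 (0.22), enolase 1 (Eno1, 0.20) and triose phosphate isomerase (Tpi1, 0.19) rose by less, with adjusted p of 0.0403, 0.0487 and 0.0319, and these 3 missed it in 9, 8 and 7 of 17 alternatives, among them rescaling and the fit without the Xist-positive libraries (adjusted p = 0.065, 0.0796 and 0.106). Glyceraldehyde 3-phosphate dehydrogenase (Gapdh), often used as a reference transcript, did not pass (1198 ± 65.7 to 1326 ± 45.1 RPKM, adjusted p = 0.132).

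In DKO none of these 8 enzymes passed on the RPKM scale. Pgk1 stood at 515.3 ± 13.3 and 575.4 ± 15.6 RPKM (limma adjusted p = 0.0775), Pgam1 at 372.9 ± 21.1 and 421.8 ± 13.3 RPKM (adjusted p = 0.0603), and Pkm at 1284 ± 18.3 and 1393 ± 16.4 RPKM (adjusted p = 0.235). Their groups did not overlap, and neither did those of Aldoa (927.7 ± 7.05 and 996.2 ± 59.4 RPKM). After rescaling, Aldoa, Pgk1, Pgam1 and Pkm passed in DKO with log2 fold changes of 0.17, 0.22, 0.24 and 0.18. The differences between both genotypes' effects, DKO minus Apoe-/-, were -0.21 for Aldoa and Tpi1 and -0.19 for Pgk1, at unadjusted limma p of 0.0474, 0.0322 and 0.0486 and adjusted p of at least 0.507. The minor forms were far below the major ones: Aldoa held 99.1% to 99.5% of aldolase transcripts per length over the 18 libraries, and Eno1 99.7% to 99.9% of those of Eno1 and Eno2. Aldoc (5.27 to 6.78 RPKM over group means) and Eno2 (0.90 to 1.32 RPKM) passed in neither genotype. When the replicate was a block within genotype, Aldoc (-0.33, limma adjusted p = 0.00329), Eno2 (0.38, adjusted p = 0.0255) and Pgam1 (0.18, adjusted p = 0.0268) passed in DKO. Eno1b, a close copy of Eno1 in the mouse, was listed at 6.61 to 8.00 RPKM over group means, and reads could have been split between them.

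Genes for the fate of pyruvate did not pass at oxLDL 60, except for Pdk1 in the fit with the replicate block. Lactate dehydrogenase A (Ldha), which turns pyruvate into lactate, stood at 486.3 ± 40.4 RPKM untreated, 562.4 ± 5.31 RPKM with oxLDL 10 and 534.6 ± 10.4 RPKM with oxLDL 60 in Apoe-/-, and at 514.1 ± 21.0, 571.7 ± 16.3 and 494.4 ± 11.3 RPKM in DKO. The highest mean was that with oxLDL 10 in both genotypes, and between both amounts Ldha fell in DKO (-0.21, limma adjusted p = 0.0316) and did not pass in Apoe-/- (-0.07, adjusted p = 0.533). Ldhb, the form of oxidative tissues, was near the low end of the range (1.20 to 1.47 RPKM over group means). Pdk1, a kinase that shuts pyruvate dehydrogenase, stood at 17.1 ± 2.36 and 14.9 ± 1.06 RPKM in Apoe-/- and at 17.1 ± 3.42 and 14.0 ± 0.908 RPKM in DKO, with limma adjusted p of 0.276 and 0.132. Pdk1 fell in both with the replicate block within genotype (-0.20, adjusted p = 0.0402, and -0.28, adjusted p = 0.00639).

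Of the 3 genes of oxygen sensing, Hif1a and Egln1 fell in both genotypes, Egln1 less firmly. Hif1a, which encodes HIF-1 alpha, fell from 48.3 ± 2.89 through 42.1 ± 2.68 with oxLDL 10 to 34.8 ± 1.15 RPKM with oxLDL 60 in Apoe-/- (-0.47 ± 0.0581 SE at oxLDL 60, limma adjusted p = 8.75e-06) and from 48.6 ± 1.04 through 43.2 ± 1.27 to 35.6 ± 1.37 RPKM in DKO (-0.45 ± 0.0581 SE, adjusted p = 1.69e-05). The 3 treatments did not overlap in either genotype. These changes were under 1.4-fold. In Apoe-/- Hif1a was close to that limit, at -0.53 to -0.44 over the alternatives. It was called there with rescaled libraries and without untreated replicate 1 or oxLDL 60 replicate 2. Its protein, which is controlled by degradation, was not measured. Egln1, the main prolyl hydroxylase acting on it, fell from 14.4 ± 1.33 to 11.7 ± 0.618 RPKM in Apoe-/- (-0.29, adjusted p = 0.048), and in DKO the levels were 14.9 ± 1.41 and 11.3 ± 1.39 RPKM (-0.40, adjusted p = 0.0107), after means of 15.9 and 15.6 RPKM with oxLDL 10. The Apoe-/- change of Egln1 was close to the limit and missed it in 9 of 17 alternatives (adjusted p up to 0.156), among them without untreated replicate 2 (-0.28) or 3 (-0.23), without any of the 3 oxLDL 60 libraries (-0.26 to -0.33) and without the Xist-positive libraries (-0.28). The DKO change missed it without untreated replicate 3 (-0.32) or oxLDL 60 replicate 2 (-0.32) and with rescaling (-0.33). Egln3, a hydroxylase that HIF-1 itself induces, did not pass in either genotype (adjusted p = 0.673 and 0.566).

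Of the 10 other HIF targets, Bhlhe40, P4ha2 and Ndrg1 were called in both genotypes. Adm was called too, by a test that the filter had partly decided. Bhlhe40, a transcriptional repressor, stood at 3.72, 5.48 and 3.86 RPKM in untreated Apoe-/- cells, 5.43, 5.86 and 5.74 RPKM with oxLDL 10 and 9.60, 10.1 and 11.2 RPKM with oxLDL 60. In DKO it stood at 4.75, 5.46 and 3.90 RPKM untreated, 7.00, 8.15 and 5.26 RPKM with oxLDL 10 and 12.0, 10.3 and 8.46 RPKM with oxLDL 60. Every oxLDL 60 library was above the others of its genotype, and the log2 fold change over untreated was 1.24 ± 0.169 SE in Apoe-/- (limma adjusted p = 2.49e-05) and 1.10 ± 0.169 SE in DKO (adjusted p = 9.71e-05).

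P4ha2, a subunit of the prolyl hydroxylase that matures collagen, stood at 2.92, 2.08 and 3.01 RPKM in untreated Apoe-/- cells, 4.28, 2.81 and 3.25 RPKM with oxLDL 10 and 6.49, 5.35 and 5.26 RPKM with oxLDL 60. In DKO it stood at 2.71, 3.11 and 1.98 RPKM untreated, 3.65, 4.26 and 3.32 RPKM with oxLDL 10 and 5.73, 5.42 and 3.97 RPKM with oxLDL 60. Untreated and oxLDL 60 groups did not overlap (1.08 ± 0.190 SE, limma adjusted p = 0.000335 in Apoe-/-, and 0.93 ± 0.190 SE, adjusted p = 0.00133 in DKO). P4ha1, the other catalytic subunit, kept its level (46.2 ± 5.20 and 46.0 ± 0.665 RPKM in Apoe-/-, 47.6 ± 4.35 and 45.8 ± 1.47 RPKM in DKO) and did not pass. The ratio of P4ha2 to P4ha1 went from 0.0584 ± 0.0141 to 0.124 ± 0.0164 in Apoe-/- and from 0.0556 ± 0.0166 to 0.111 ± 0.0234 in DKO, without overlap (exact two-sided permutation p = 0.1 in each).

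Ndrg1, a stress-responsive gene used as a marker of hypoxia, stood at 5.10, 5.10 and 7.14 RPKM in untreated Apoe-/- cells, 6.91, 7.27 and 7.42 RPKM with oxLDL 10 and 7.93, 8.39 and 8.98 RPKM with oxLDL 60. In DKO it stood at 5.38, 6.19 and 5.95 RPKM untreated, 6.43, 7.35 and 7.93 RPKM with oxLDL 10 and 9.35, 8.91 and 8.21 RPKM with oxLDL 60. The oxLDL 60 libraries lay above all others of their genotype (0.55 ± 0.112 SE, limma adjusted p = 0.0011 in Apoe-/-, and 0.59 ± 0.112 SE, adjusted p = 0.00076 in DKO). The Apoe-/- call was lost without untreated replicate 1 (0.47), untreated replicate 2 (0.47) or the Xist-positive libraries (0.48).

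Adm, which encodes the vasodilator peptide adrenomedullin, was close to the limit of detection. By its steps it had 2, 2 and 3 reads in untreated Apoe-/- libraries, 3, 2 and 2 with oxLDL 10, and 20, 10 and 13 with oxLDL 60. In DKO it had 1, 5 and 1 reads untreated, 6, 0 and 1 with oxLDL 10, and 9, 15 and 9 with oxLDL 60. The oxLDL 60 libraries held the most reads in both genotypes, up to 0.265 RPKM (1.17 ± 0.244 SE, limma adjusted p = 0.00141, and 1.01 ± 0.244 SE, adjusted p = 0.00518). With a pseudocount of 1 RPKM in place of 0.1, these log2 fold changes were 0.22 and 0.18 and neither was called, and counting error alone is large at such depth.

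**Figure D3:**
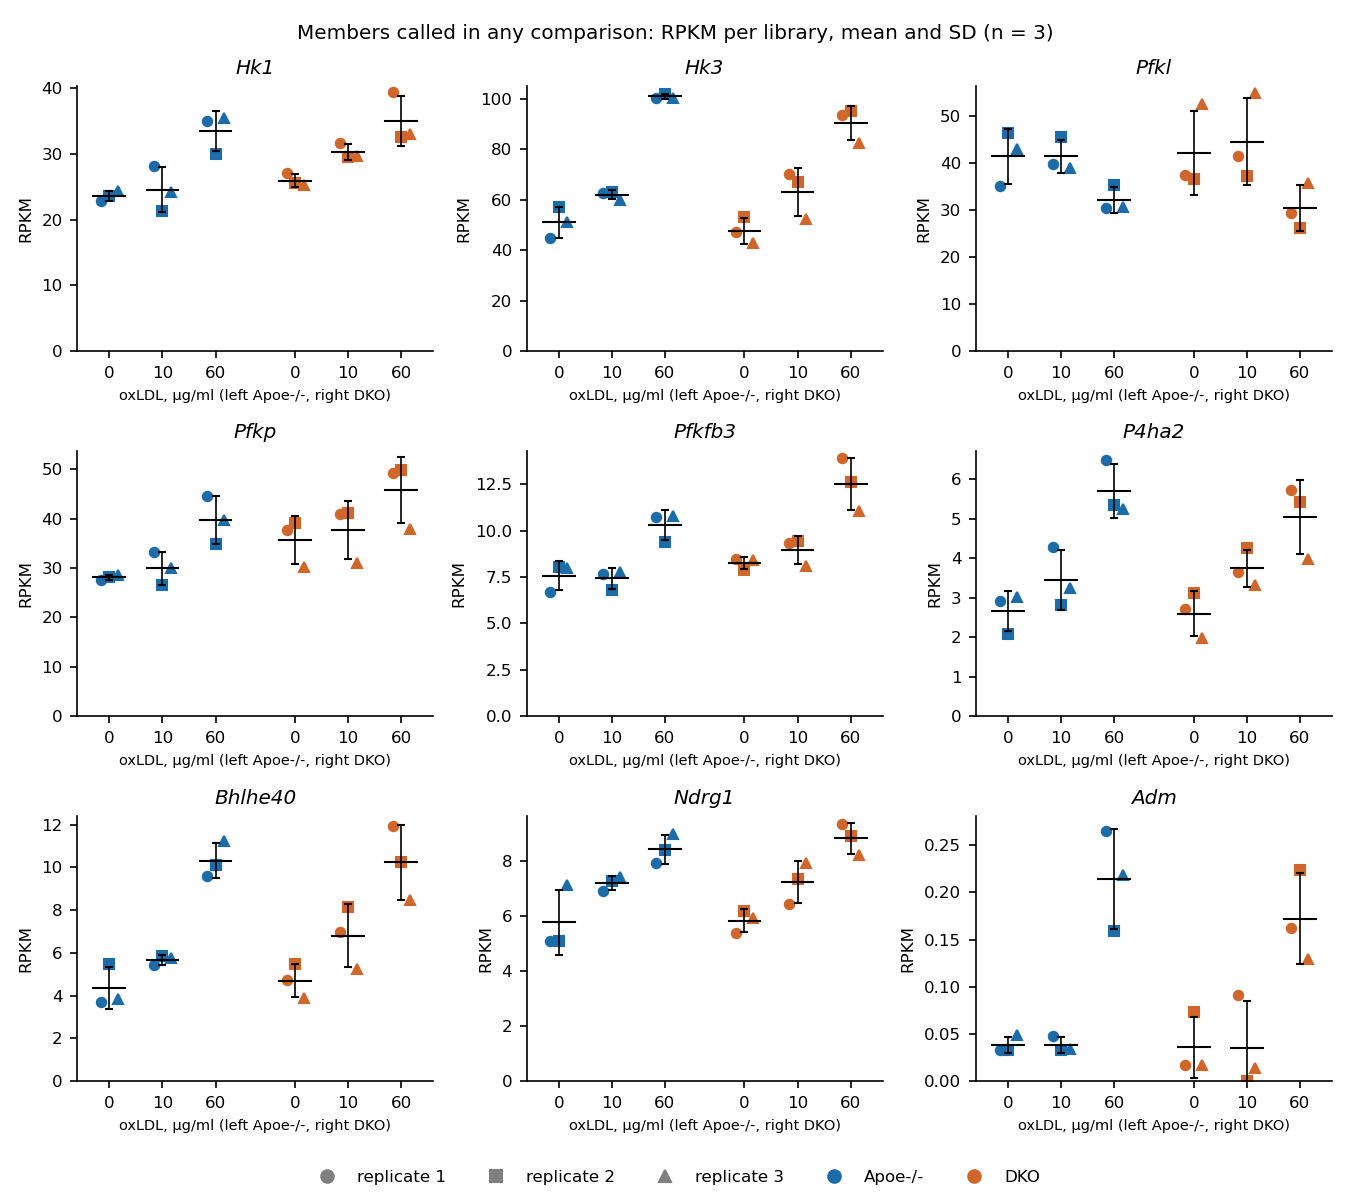
RPKM of the 9 genes called in at least 1 comparison, in each of the 18 libraries (points), with the mean and SD of each group of 3; each panel has its own axis. The oxLDL 60 points of Hk3, Bhlhe40, Pfkfb3, Ndrg1 and Adm lie above all other points of their genotype.

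At oxLDL 60, other well-known HIF targets did not follow. Vegfa, the angiogenic growth factor, stood at 6.68 ± 1.03 and 7.46 ± 0.832 RPKM in Apoe-/- and at 6.52 ± 1.03 and 7.53 ± 0.625 RPKM in DKO (limma adjusted p = 0.358 and 0.237). Bnip3, which marks mitochondria for removal, stood at 39.3 ± 7.85 and 43.0 ± 6.42 RPKM and at 37.4 ± 10.7 and 39.3 ± 8.07 RPKM. Ankrd37 (5.17 ± 0.231 and 4.94 ± 0.937 RPKM in Apoe-/-) and the histone demethylase Kdm3a (9.67 ± 1.14 and 10.9 ± 0.891 RPKM) did not pass in either genotype, apart from Kdm3a in Apoe-/- with the replicate block (0.17, adjusted p = 0.0421). The 95% intervals of the log2 fold change reached 0.61 for Bnip3 and 0.43 for Vegfa in Apoe-/-, so that changes below these sizes could have been missed. Higd1a, a mitochondrial protein of the hypoxia response, rose in Apoe-/- (15.9 ± 1.33 to 19.0 ± 2.22 RPKM, 0.25, adjusted p = 0.0178), with overlapping groups, and did not pass in DKO (18.9 ± 0.888 and 19.1 ± 0.289 RPKM). The Apoe-/- rise missed the limit without untreated replicate 1 (0.19), oxLDL 60 replicate 1 (0.18) or 2 (0.23), or the Xist-positive libraries (0.23). At oxLDL 10, the fit with the replicate block within genotype gave rises under 1.4-fold for some HIF targets. Bnip3 rose in both genotypes (0.31, limma adjusted p = 0.0153 in Apoe-/-, and 0.38, adjusted p = 0.0059 in DKO). Vegfa rose in DKO alone (0.40, adjusted p = 0.0099), and Egln3 in Apoe-/- alone (0.42, adjusted p = 0.0198). Ankrd37 and Kdm3a passed there in neither genotype.

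At oxLDL 10, none of the 35 genes was called by limma in either genotype, where 2.79% of all genes were called in Apoe-/- and 2.26% in DKO. At an unadjusted p under 0.05 there were 9 (22.4% of all genes) and 11 (13.2% of all genes). In Apoe-/- 5 genes passed the adjusted p (7.04% of all genes), namely Higd1a (15.9 ± 1.33 to 20.7 ± 0.278 RPKM, 0.38, adjusted p = 0.00641), Pgam1 (0.25), Tpi1 (0.22) and Pgk1 (0.22), which rose, and Hif1a (-0.20), which fell. Pgam1, Tpi1, Pgk1 and Hif1a were close to the limit (adjusted p = 0.0327, 0.0473, 0.0462 and 0.0495 by limma) and missed it in 8, 10, 10 and 11 of 17 alternatives, including the fit without any of the 3 oxLDL 10 libraries in turn. Higd1a missed it without the Xist-positive libraries (0.38, adjusted p = 0.0526), as did these 4. In DKO 1 gene passed (3.97% of all genes), Hk3 (0.40, adjusted p = 0.0437), and it missed the limit without untreated replicate 1 (0.40) or 3 (0.32) or oxLDL 10 replicate 1 (0.32) or 2 (0.35). With the replicate block within genotype, 12 genes passed in Apoe-/- (16.4% of all genes) and 7 in DKO (9.28%), and 2 of the latter were called, P4ha2 (0.53, adjusted p = 0.00262) and Bhlhe40 (0.51, adjusted p = 0.00404), where 3.5% of all genes were called. Single libraries decided these counts, since 1 gene was called in Apoe-/- without untreated replicate 3, and in DKO 2 were called without oxLDL 10 replicate 3 and 1 without untreated replicate 3. Without the Xist-positive libraries 2 genes passed the adjusted p in Apoe-/- (5.72% of all genes) and 2 in DKO (3.57%). In each genotype 1 gene was then called (3.33% and 2.45% of all genes). Both comparisons with untreated cells use the same control libraries, so that the 2 amounts were also compared directly.

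Between both amounts, oxLDL 60 against oxLDL 10, 4 genes were called in Apoe-/- (6.46% of all genes), all higher. They were Bhlhe40 (0.85), P4ha2 (0.72) and Hk3 (0.70), and Adm (1.17), whose difference was partly fixed by the filter. The P4ha2 call was lost without oxLDL 10 replicate 2 or 3 or oxLDL 60 replicate 1 (limma adjusted p up to 0.0769). The Adm call was lost with a pseudocount of 1 RPKM. The adjusted p was passed by 9 genes (13.5% of all genes), which added Pfkfb3 (0.47), Hk1 (0.45) and Slc2a1 (0.25) as higher and Egln1 (-0.44) and Hif1a (-0.27) as lower. Slc2a1 missed it without the Xist-positive libraries (0.26, adjusted p = 0.0642 by limma). Without oxLDL 60 replicate 2, the called genes in Apoe-/- numbered 7. There 8 were higher and 5 lower with the replicate block within genotype (10.6% and 11.4% of all genes). In DKO 4 were called (5.66% of all genes). Bhlhe40 (0.59), Hk3 (0.53) and Adm (1.05) were higher and Pfkl (-0.54, limma adjusted p = 0.0282) was lower. For Adm the same limit of the filter holds in DKO. Its call was lost there with a pseudocount of 1 RPKM and with the fit limited to the groups compared. There 9 passed the adjusted p (15.6% of all genes), 4 higher and 5 lower, the others being Pfkfb3 (0.48), Egln1 (-0.46), Hif1a (-0.28), Ldha (-0.21) and Tpi1 (-0.20). With the replicate block within genotype 16 passed there, 8 in each direction (25.6% of all genes). Without the Xist-positive libraries Ldha and Tpi1 missed the adjusted p and Hk3 (0.46) was no longer called, while P4ha2 and Pfkfb3 were then called. That fit gave 5 called genes in DKO (6.06% of all genes) and 4 in Apoe-/- (6.56%). The adjusted p was passed there by 9 (11.7% of all genes) and 10 (11%). The DKO count of 4 calls rested on single libraries, since it was 1 without oxLDL 10 replicate 3 and 2 without oxLDL 60 replicate 1 or 2.

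None of the 35 genes was called between genotypes by limma, untreated or with either amount of oxLDL. Called among all genes were 0.21% untreated, 0.0857% with oxLDL 10 and 0.125% with oxLDL 60. The 35 log2 fold changes, DKO minus Apoe-/-, ran from -0.14 to 0.33 untreated, from -0.22 to 0.32 with oxLDL 10 and from -0.24 to 0.27 with oxLDL 60, and the smallest adjusted p were 0.143, 0.365 and 0.523. An unadjusted p under 0.05 was reached by 3 genes untreated (Higd1a, Pfkp and Pfkm, all higher), where 17.3% of all genes reached it, by 4 with oxLDL 10 (Hk1, Hk2, Pfkfb3 and Pfkp, all higher; 9.75% of all genes) and by 3 with oxLDL 60 (Pfkfb3 higher, Gapdh and Gpi1 lower; 7.88% of all genes). These counts are near or below that background. Pfkp, at 27.5 to 28.5 RPKM in untreated Apoe-/- cells and 30.1 to 39.2 RPKM in untreated DKO cells, had the largest of these differences (0.33 ± 0.134 SE, adjusted p = 0.225).

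Groups of both genotypes did not overlap for 8 of the 35 genes untreated, all higher in DKO (19.6% of all genes tested did not overlap), for 2 with oxLDL 10 (12.1% of all genes) and for 9 with oxLDL 60, of which 8 were lower in DKO (16.5% of all genes). Those 8 were Hk3, Gpi1, Tpi1, Gapdh, Pgk1, Pgam1, Pkm and Ldha, and the gene higher in DKO was Pfkfb3. Against these shares of all genes, the count was near the background untreated, below it with oxLDL 10 and above it with oxLDL 60. These shares hold both directions, and shares by direction were not counted. The medians of all genes were 0.09 untreated and -0.02 with oxLDL 60. Rescaling moved the median of the 35 from 0.05 to -0.05 untreated and from -0.07 to -0.04 with oxLDL 60. Overlap of groups was not counted on rescaled values. Without the Xist-positive libraries 1 of the 35 passed the adjusted p untreated (4.99% of all genes) and 1 with oxLDL 10 (1.03%), and none was called.

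The difference between both genotypes' effects of oxLDL was tested as an interaction. With oxLDL 10 none was called for the interaction (0.0% of all genes) and none had an unadjusted limma p under 0.05 (1.92% of all genes). With oxLDL 60 none was called (0.0156% of all genes), and 6 had an unadjusted p under 0.05 (9.78% of all genes), all with a lower log2 fold change in DKO. These were Pfkm (-0.35), Higd1a (-0.23), Aldoa (-0.21), Tpi1 (-0.21), Ldha (-0.20) and Pgk1 (-0.19), with a smallest adjusted p of 0.507. The median over the 35 was -0.10, and that over all genes tested -0.11. Rescaling the libraries, which centres all genes by construction, moved the median of all genes by 0.12, and that of the 35 was then 0.03.

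Replicates of 1 genotype differed from each other in many of these genes, and in DKO the same replicate stood out at each treatment. Replicate 3 of DKO had the highest mean level for 16 of the 35 genes, and for 14 of them it was highest at all 3 treatments. The same count was not made over all genes tested. Over those, same-numbered libraries of a genotype deviated together (correlations of 0.183 to 0.695), so the count is not read as a trait of these 35 genes. Egln3 was 1.07, 1.09 and 2.45 RPKM in the untreated DKO replicates 1, 2 and 3, then 1.63, 1.34 and 2.79 RPKM with oxLDL 10 and 1.64, 1.42 and 2.20 RPKM with oxLDL 60. Bnip3 was 33.2, 29.5 and 49.6 RPKM untreated, 38.6, 41.5 and 66.2 RPKM with oxLDL 10, and 35.5, 33.8 and 48.6 RPKM with oxLDL 60. Ankrd37 was 4.84, 3.75 and 5.99 RPKM untreated, 5.87, 4.33 and 8.16 RPKM with oxLDL 10, and 3.95, 4.68 and 5.88 RPKM with oxLDL 60. For these genes replicate 3 exceeded both others at each treatment, by 1.87-fold (Egln3), 1.57-fold (Bnip3) and 1.54-fold (Ankrd37) over the lowest replicate on average, more than the mean effect of oxLDL 60 on any of them.

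Pfkl (1.42-fold), Aldoc (1.34-fold), Pdk1 (1.27-fold) and Egln1 (1.26-fold) were also highest in replicate 3 at each treatment, and Pfkp, Hk3, P4ha2 and Bhlhe40 were lowest in replicate 3. The 5 promoters printed above include both kinds, Bnip3 and Ankrd37 among the first and Hk3 and P4ha2 among the second. In Apoe-/- replicate 2 was highest for 16 genes, but at all 3 treatments for 3 of them (Hk3, Pfkl and Aldoc). Other readouts moved with these replicates. Col1a2, a fibroblast marker, was 0.434 to 0.557 RPKM in DKO replicate 3 and 1.77 to 2.95 RPKM in the other DKO libraries, and the summed fibroblast and endothelial markers were lowest there. S100a9, a neutrophil marker, was 15.7 to 17.9 RPKM in DKO replicate 3 and 20.0 to 39.9 RPKM in the other DKO libraries. The neutrophil markers did not all follow it. S100a8, Ngp, Camp, Ltf and Cxcr2 were lowest in DKO replicate 3 at each treatment, while Mpo, Elane, Retnlg and Ly6g were not. Xist was above 1 RPKM in this replicate, as given above. The part of these features in the difference between replicates was not tested.

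**Figure D4:**
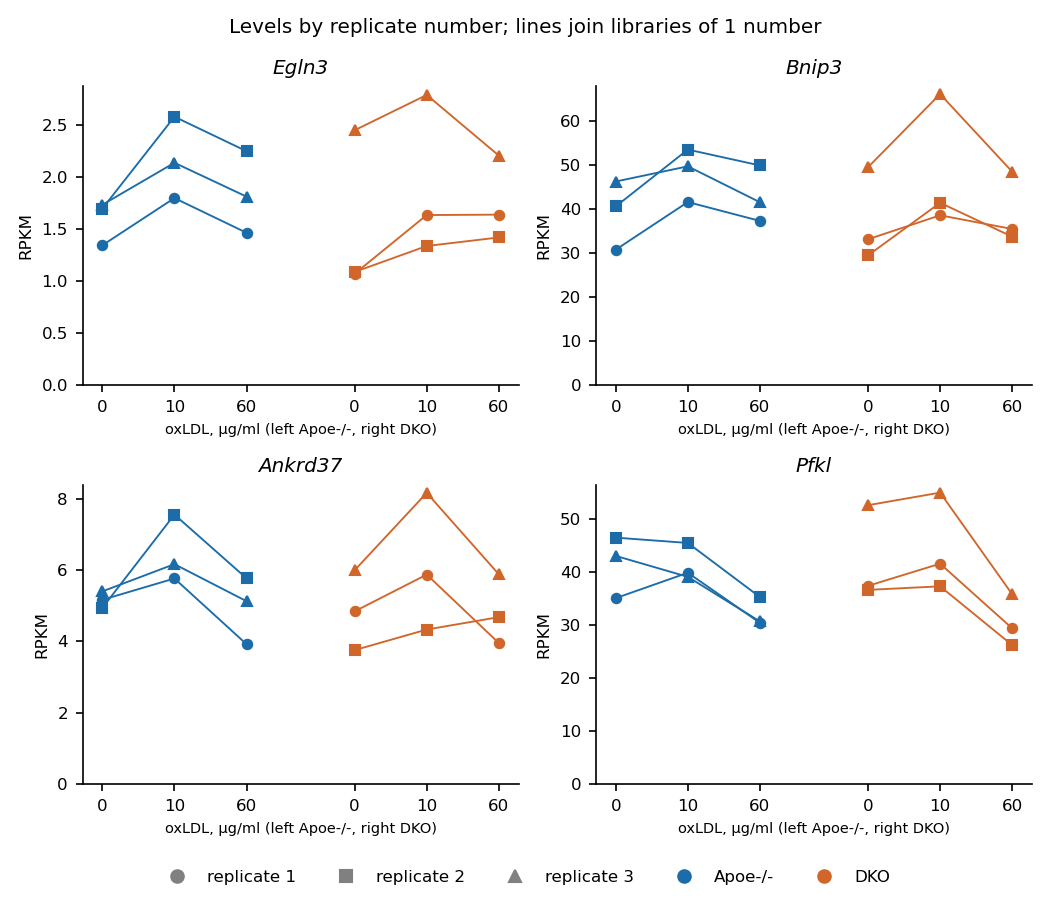
RPKM of Egln3, Bnip3, Ankrd37 and Pfkl in each library (points), joined by replicate number within a genotype across untreated cells, oxLDL 10 and oxLDL 60 (x axis). Replicate 3 of DKO is the highest DKO line in each panel, for example 66.2 RPKM for Bnip3 with oxLDL 10 against 38.6 and 41.5 RPKM.

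Genes of neighbouring pathways were counted in the same fits. At oxLDL 60, 13.9% of all genes tested were called in Apoe-/- and 12.2% in DKO. In lists of 10 to 14 tested genes, a count of 1 or 2 called genes lies near these shares. In the pentose phosphate pathway, which takes glucose 6-phosphate to make NADPH, 2 of 11 genes were called at oxLDL 60, both higher in both genotypes. Taldo1 (transaldolase) went from 290.9 ± 19.0 to 679.9 ± 21.7 RPKM in Apoe-/- (1.23, limma adjusted p = 1.89e-09), and in DKO the levels were 354.3 ± 24.3 and 652.5 ± 13.5 RPKM (0.88, adjusted p = 8.14e-08), a larger log2 fold change than that of any gene from Gpi1 to Pkm. Pgd, the second NADPH-producing enzyme, rose by 0.69 and 0.54. Of 11 tested genes of gluconeogenesis and glycogen, 5 were called in each genotype, all higher, led by the glycogen branching enzyme Gbe1 (8.16 ± 0.69 to 24.6 ± 1.20 RPKM in Apoe-/-, 1.58, and 8.71 ± 0.314 to 23.4 ± 1.70 RPKM in DKO, 1.41) and followed by Ppp1r3b, Pck2 and Pcx. None of 9 other tested glycolytic genes was called.

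Among 4 tested members of the other glucose transporters, Slc2a6 had log2 fold changes of -1.25 in Apoe-/- and -1.20 in DKO, both called, from means of 57.3 ± 13.5 and 42.1 ± 13.3 RPKM, and Slc2a3 rose by 0.54 in Apoe-/- (called) and 0.32 in DKO (not called, adjusted p = 0.0413 by limma). Of 14 tested genes around pyruvate, 1 was called in both genotypes, the pyruvate dehydrogenase phosphatase Pdp1 (1.06 and 0.76), the counterpart of Pdk1. Called among all genes were 13.9% in Apoe-/- and 12.2% in DKO. Of 10 tested HIF pathway components, Cited2, which competes with HIF-1 alpha for its coactivator, fell in both (-0.69 and -0.80), and the coactivator Ep300 was called in Apoe-/- (-0.60) and missed the adjusted p in DKO (-0.41, adjusted p = 0.0503). For neither Slc2a3 nor Ep300 did the effects of both genotypes differ by the interaction test (adjusted p = 0.641 and 0.766).

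Of 34 tested genes in a wider list of HIF targets, 5 were called higher and 1 lower in Apoe-/-, and 4 higher and 1 lower in DKO, near the share of all genes. Heme oxygenase 1 (Hmox1) rose by 2.26 in Apoe-/- and 2.14 in DKO, to 2504 ± 347 and 2481 ± 402 RPKM. Hilpda, a lipid droplet protein, rose by 1.96 and 1.77. Nos2, which makes nitric oxide, fell by 3.42 and by 2.86 on the log2 scale from 1.17 ± 0.341 and 0.765 ± 0.147 RPKM, and Rragd rose by 1.56 and 1.60. Hmox1 and Hilpda are also known targets of regulators other than HIF-1.

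None of the tested markers of other cells was called at oxLDL 60. The counts were 0 of 9 tested neutrophil markers, 0 of 6 of fibroblasts and endothelium, 0 of 2 of erythroid cells and megakaryocytes and 0 of 1 of dendritic cells by limma in either genotype, with 1 of them (Kdr in DKO, 0.31) at an unadjusted p under 0.05, and no lymphocyte marker was high enough to test. Of the 8 macrophage markers tested, 4 were called lower and 1 higher in Apoe-/-, and 3 lower and 1 higher in DKO. Cd14 fell most (-1.61 and -1.81), followed by Fcgr1 and Lyz2, while Mertk rose (0.68 and 0.70). The summed macrophage markers were 8930 to 11800 RPKM in untreated Apoe-/- libraries and 6530 to 8480 RPKM with oxLDL 60, and 8380 to 11000 and 5560 to 7150 RPKM in DKO. Lyz2 made up most of this sum, and its part in the levels of the other genes on the RPKM scale was not tested.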

How the data were processed

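RPKM values for 18668 gene symbols in 18 libraries were deposited by the authors as 1 table. Reads were aligned with STAR to mm10, according to the submitters' processing notes, and the annotation behind the RPKM step is not given in the sources used here. The authors tested genes with DESeq2, which needs counts, so limma 3.58.1 in R 4.3.3 was used here, with limits on adjusted p and fold change that follow their methods.

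Values were taken as log2(RPKM + 0.1), so that fold changes of low genes are understated. The filter for testing was 0.1 RPKM or more in 3 or more libraries, which left 12838 genes. All 18 libraries entered 1 linear model of the 6 group means (limma with eBayes and a trend), and Benjamini-Hochberg adjustment was made separately in each of 11 comparisons. A gene was called at an adjusted p under 0.05 and a change of at least 1.4-fold. Ratios of enzyme forms were compared by exact permutation tests. The fit was checked on simulated data.

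Depth was recovered from the steps between low values: of 23656 compared, 78.5% lay within 0.05 of whole steps, where chance gives 10.0%. On a transcript of 1 kb, 3 reads correspond to 0.0554 to 0.0755 RPKM, a limit that covers counting error only. Spreadsheet dates stood in place of 24 symbols. Within a genotype, libraries with the same replicate number had deviations from their group means that correlated from 0.183 to 0.695 (18 pairs), and other numbers had a median of -0.347. Between genotypes the same number had a median of -0.168, so that an alternative fit took the replicate as a block within genotype. The main fit had no term for the replicate and left this pairing out.

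The 35 genes, the other lists, the tests and the alternatives were chosen with earlier results of these data known, and the fit without the Xist-positive libraries was added after seeing the values. All 35 genes are named, with values per library for those called in any comparison, and at most 4 called genes from each other list. Egln3, Bnip3 and Ankrd37 are given per library because of their spread between replicates, a choice made after their values were seen. The naming of Eno1b, Col1a2, S100a9 and the other neutrophil markers, Xist and Kdr was also decided after their values were seen. Other alternatives were the pseudocount, the filter, rescaled libraries, the replicate block and leaving out single libraries. Tables and plots were made in Python 3.11.15 (pandas 2.3.3, numpy 2.4.6, matplotlib 3.10.9).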

Additional observations from a re-analysis of the deposited data

How the results depend on the processing

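Of the changes tested gene by gene over the alternatives, 929 stayed on their side of the limits, 147 lost them, 47 gained them and none turned its direction. At oxLDL 60, Hk3, Bhlhe40 and P4ha2 were called in both genotypes under each alternative run, and so were Ndrg1 and Pfkfb3 in DKO. Leaving out 1 library at a time gave 5 to 9 called genes in Apoe-/- and 6 to 9 in DKO at oxLDL 60, 0 to 1 and 0 to 2 at oxLDL 10, and 3 to 7 and 1 to 6 between both amounts. The genes past the adjusted p at oxLDL 60 then numbered 13 to 19 in Apoe-/- and 9 to 13 in DKO, and comparisons between genotypes kept a count of 0 called. With no limit on the fold change, the counts were 20 and 12 at oxLDL 60, 5 and 1 at oxLDL 10, and 9 and 9 between both amounts. With the replicate block within genotype, 19 genes passed the adjusted p at oxLDL 60 in DKO and 2 were called at oxLDL 10 in DKO. A block across genotypes and a term for Xist each gave 1 called there, and without the Xist-positive libraries 1 was called at oxLDL 10 in each genotype. Between both amounts in DKO, 2 were called with no filter and 1 with the fit limited to the groups compared. The cause of these changes was not tested. Counts that the replicate block within genotype moved by more than 1.5 times at the adjusted p, in either direction, are given with the results above. Depth limits Adm above all, at 20 reads or fewer per library, and with 3 replicates a change under about 1.4-fold was often near the limits.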
